A study of Homo sapiens with 6 samples.

Results

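Gene deserts are long stretches of the genome without protein-coding genes. Here a region of FOSL2 or JUNB binding was placed in a desert when its summit, the position of its highest signal, lay outside every protein-coding gene on an autosome and at least 200 kb from an end of any such gene. By this rule 10133 of 113068 autosomal regions (8.96%) were desert regions: 7250 of 73751 FOSL2 regions (9.83%) and 2883 of 39317 JUNB regions (7.33%). They were set against the 30189 FOSL2 and 16871 JUNB regions that also lay outside protein-coding genes but nearer to one. The choice used position only, and neither sharing nor strength.

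The regions come from ChIP-seq of both transcription factors in HaCaT cells, a spontaneously immortalised human skin keratinocyte line, with 3 libraries per factor made by ChIPmentation. Cells of both groups were grown alike in DMEM with serum, and no treatment is given in the labels. The series as a whole concerns enhancer activity of variants at atopic dermatitis risk loci. One list per factor stands for all 3 libraries. The values below therefore carry no spread between replicates, and intervals cover counting error only. The antibody differed between the factors, so a difference between the FOSL2 and the JUNB list cannot be told apart from a difference between antibodies. The lists hold no expression values, so keratinocyte identity was not checked against marker genes.

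FOSL2, of the FOS family, and JUNB, of the JUN family, bind DNA as FOS-JUN dimers of the AP-1 type, whose preferred element reads TGANTCA with C or G in the middle. In keratinocytes AP-1 factors take part in proliferation, differentiation and the response to stress and injury, and much of their binding lies at enhancers away from promoters. Gene deserts often flank genes of developmental transcription factors, and enhancers in them can act on a gene over long distances; many deserts also hold long noncoding RNA genes, which have no known protein product.

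The desert regions that met the start of a long noncoding RNA gene show what sequence lay under them. RefSeq promoter windows on GRCh38.p14, each 250 bases before to 50 bases after an annotated start, are printed 5′ to 3′ on the gene's strand, with every TGANTCA in capitals. The first 5 are windows that held a summit of both factors and the AP-1 word, and the last is one that held both summits without it. They are LINC01392 (chr7:115231306-115231605, minus strand), LOC124903079 (chr12:114933533-114933832, minus strand), LOC105374243 (chr3:182182713-182183012, minus strand), LOC105370777 (chr15:38868334-38868633, minus strand), LINC01358 (chr1:59020226-59020525, plus strand) and LINC01830 (chr2:22536273-22536572, minus strand).
LINC01392: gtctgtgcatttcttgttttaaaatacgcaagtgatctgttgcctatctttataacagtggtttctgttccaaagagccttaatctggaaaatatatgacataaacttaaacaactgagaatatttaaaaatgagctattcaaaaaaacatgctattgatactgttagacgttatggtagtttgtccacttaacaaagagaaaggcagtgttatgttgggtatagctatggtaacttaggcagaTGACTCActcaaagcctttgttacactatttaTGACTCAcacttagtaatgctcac
LOC124903079: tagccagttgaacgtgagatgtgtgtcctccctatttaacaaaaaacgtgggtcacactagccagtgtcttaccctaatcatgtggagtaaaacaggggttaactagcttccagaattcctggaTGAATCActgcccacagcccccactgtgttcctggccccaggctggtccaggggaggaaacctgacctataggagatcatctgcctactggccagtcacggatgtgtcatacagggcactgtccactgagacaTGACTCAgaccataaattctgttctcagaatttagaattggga
LOC105374243: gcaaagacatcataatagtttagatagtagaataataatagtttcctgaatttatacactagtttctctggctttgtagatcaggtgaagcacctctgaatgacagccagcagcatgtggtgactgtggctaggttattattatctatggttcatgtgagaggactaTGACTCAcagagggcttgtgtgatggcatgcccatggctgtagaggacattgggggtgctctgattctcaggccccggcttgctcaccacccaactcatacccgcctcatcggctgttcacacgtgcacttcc
LOC105370777: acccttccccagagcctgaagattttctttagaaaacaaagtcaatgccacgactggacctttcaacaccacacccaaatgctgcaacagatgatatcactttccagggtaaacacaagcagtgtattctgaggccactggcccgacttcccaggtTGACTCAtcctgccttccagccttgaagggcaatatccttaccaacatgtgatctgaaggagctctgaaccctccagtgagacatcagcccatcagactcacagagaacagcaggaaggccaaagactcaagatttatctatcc
LINC01358: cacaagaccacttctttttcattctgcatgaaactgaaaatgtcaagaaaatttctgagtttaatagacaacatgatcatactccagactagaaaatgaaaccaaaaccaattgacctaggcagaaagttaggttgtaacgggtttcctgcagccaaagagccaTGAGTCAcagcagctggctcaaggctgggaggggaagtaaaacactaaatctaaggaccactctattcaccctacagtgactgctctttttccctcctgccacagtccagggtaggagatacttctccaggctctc
LINC01830: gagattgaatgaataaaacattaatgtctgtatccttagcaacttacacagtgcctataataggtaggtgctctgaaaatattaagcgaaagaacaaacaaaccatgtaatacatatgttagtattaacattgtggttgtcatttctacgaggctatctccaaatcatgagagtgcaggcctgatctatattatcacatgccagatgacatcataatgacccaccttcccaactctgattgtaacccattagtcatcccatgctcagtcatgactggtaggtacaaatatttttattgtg

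In the LINC01392 window, 212 kb from MDFIC, named for its MyoD-family inhibitor domain, the authors' fold enrichment of signal over background was 11.6 for JUNB and 10.0 for FOSL2. The FOSL2 summit was at base 252 and the JUNB summit at base 253 of the window, counted from its 5′ end, and the first of its 2 AP-1 words began at base 245. Summits and words lay less close in other windows. In LOC124903079 words began at bases 125 and 258, with FOSL2 at 235 and JUNB at 153. The word began at 168 in LOC105374243 (FOSL2 187, JUNB 227), at 157 in LOC105370777 (154, 128) and at 165 in LINC01358 (207, 199). The LOC124903079 window lay 250 kb from TBX3, a T-box transcription factor of limb and breast development, with FOSL2 at 10.4 and JUNB at 9.20. LOC105374243 lay 468 kb from SOX2, a factor of pluripotent and neural stem cells, with FOSL2 at 10.3 and JUNB at 8.96. LOC105370777, 304 kb from RASGRP1, a Ras exchange factor, had FOSL2 at 12.1 and JUNB at 7.63. LINC01358, 236 kb from JUN, which encodes a dimer partner of the FOS family, had FOSL2 at 8.63 and JUNB at 6.28. LINC01830, 849 kb from KLHL29, had FOSL2 at 9.30 and JUNB at 8.27 with no TGANTCA and no TGACGTCA in its window. All these values were above the median of desert regions of their list, 5.65 for FOSL2 and 5.21 for JUNB. The windows were picked after their values were seen, so this describes the examples and not desert windows in general. Some other windows with both summits fell below a median. The LOC105369880 window, for example, had FOSL2 at 4.85 and JUNB at 3.13.

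A summit lay in few desert promoter windows. Of 1741 windows of long noncoding RNA genes in deserts, 41 (2.36%) held a FOSL2 summit, 27 (1.55%) a JUNB summit and 20 both. Of 6444 windows of such genes elsewhere outside protein-coding genes, 6.81% held a FOSL2 summit and 7.31% a JUNB summit. Regions of any kind were also sparser in deserts: their density per length was 0.344 of that elsewhere outside genes for FOSL2 and 0.245 for JUNB. The window shares were not tested against this background. TGANTCA, which reads alike on both strands apart from its middle base and was counted wherever it occurred, overlaps included, was found in 29 of the 48 desert windows with a summit (60.4%, 95% Wilson interval 46.3 to 73.0%) and in 12.3% of the 1693 without one. It occurred in 7.67% of all autosomal promoter windows and in 13.6% of all desert long noncoding windows. The word TGACGTCA, the longer element of CREB and ATF dimers, was not in any of the 48 windows with a summit and was in 1.87% of all windows. A word in a window is a description of its letters and was not tested as a binding site.

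Deserts held fewer regions per length than the rest of the sequence outside genes. FOSL2 had 10.6 regions per Mb in 684.8 Mb of desert (exact Poisson interval 10.3 to 10.8) and 30.8 per Mb in the other 980.3 Mb outside genes (30.4 to 31.1). JUNB had 4.21 per Mb in deserts (4.06 to 4.37) and 17.2 per Mb elsewhere outside genes (17.0 to 17.5). The desert density was thus 0.344 of that elsewhere for FOSL2 and 0.245 for JUNB. Some long deserts, centromeres among them, hold no region at all. The desert length counts every position, whether or not reads can be placed there, so the full-length desert densities can be too low. As an alternative, stretches of at least 1 Mb without an annotated gene of any kind, called empty stretches here, were left out of the length. This left 508.8 Mb of desert, with 14.2 FOSL2 and 5.67 JUNB regions per Mb, and ratios of 0.461 and 0.328. Regions inside the empty stretches were still counted, so these densities can be too high. With the full length and the limit at 500 kb the ratios were 0.222 and 0.140. With deserts bounded by long noncoding as well as protein-coding genes they were 0.117 and 0.0721. Deserts held 2.51 FOSL2 regions for each JUNB region, against 1.79 elsewhere outside genes and 2.00 elsewhere at least 10 kb from a gene end.

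Sharing went opposite ways in the lists. A region was called shared when it overlapped one of the other factor by 1 bp or more. Of the desert FOSL2 regions, 2504 (34.5%, Wilson interval 33.5 to 35.6%) were shared, against 12890 (42.7%, 42.1 to 43.3%) of the other FOSL2 regions outside genes. Of the desert JUNB regions, 2519 (87.4%, 86.1 to 88.5%) were shared, against 12980 (76.9%, 76.3 to 77.6%) of the other JUNB regions outside genes. The odds ratio of being shared, desert over other, was 0.708 for FOSL2 (exact interval 0.671 to 0.747, adjusted p = 2.68e-37) and 2.07 for JUNB (1.85 to 2.34, adjusted p = 9.88e-40), by Fisher's exact test, two-sided, with adjustment over the 2 factors. With a reciprocal overlap of 50% required, the JUNB odds ratio was 1.23 (1.13 to 1.34). Neighbouring regions are not independent, so these p-values count regions and are not p-values over replicates. The 2 odds ratios are also not separate results, since both count the same overlaps, seen from lists of different size. For each JUNB region there were 2.51 FOSL2 regions in deserts and 1.79 elsewhere outside genes. Only 364 desert regions were JUNB-only, against 4746 that were FOSL2-only.

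With distance from a coding gene the shares moved in steps. The FOSL2 share was 53.1% within 1 kb of a gene end, 39.2% at 100 to 200 kb, 36.5% at 200 to 300 kb, 31.4% at 500 to 1000 kb and 25.7% beyond 1000 kb. The JUNB share was 52.9% within 1 kb of a gene end, 79.2% at 1 to 10 kb, 85.6% at 100 to 200 kb, 87.0% at 200 to 300 kb, 89.2% at 500 to 1000 kb and 83.6% beyond 1000 kb. In both lists the intervals of the bins on either side of the 200 kb limit overlapped. Set against other regions at least 10 kb from a gene end, the odds ratio was 0.759 for FOSL2 (0.718 to 0.803) and 1.44 for JUNB (1.28 to 1.63).

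**Figure D1:**
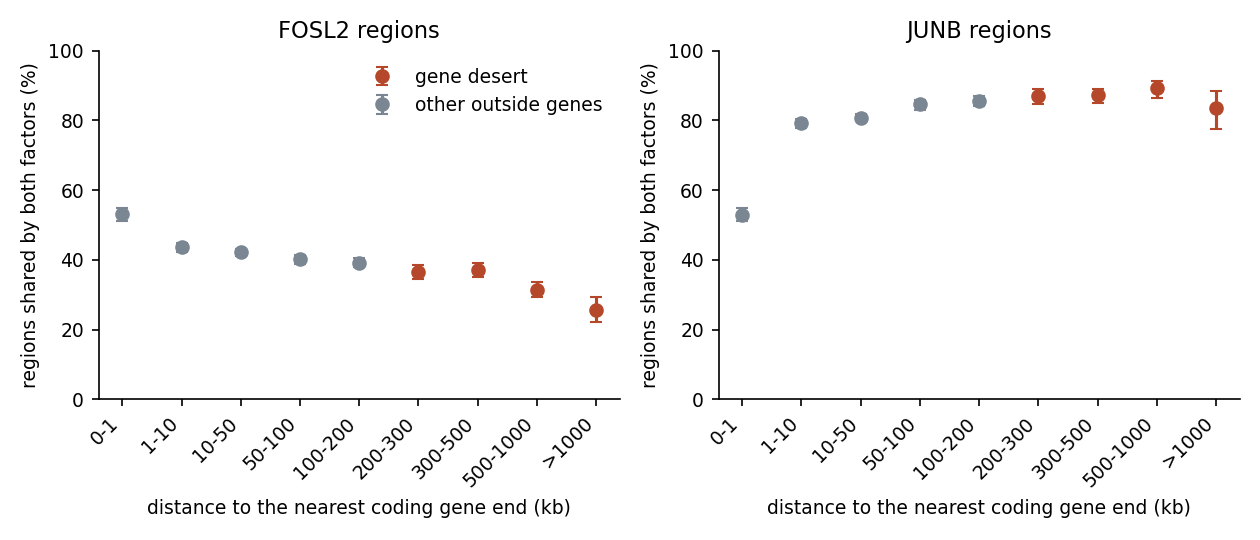
Percent of FOSL2 regions (left) and JUNB regions (right) outside protein-coding genes that overlap a region of the other factor, by distance in kb from the summit to the nearest end of a protein-coding gene; bars are 95% Wilson intervals. The FOSL2 share is 53.1% in the nearest bin and 25.7% in the farthest, while the JUNB share is 52.9% in the nearest bin and 83.6% in the farthest.

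The direction was shared by most chromosomes. The FOSL2 share was lower in deserts than elsewhere outside genes on 20 of 22 autosomes, with 2 exceptions, chromosomes 15 and 22. On chromosome 15 it was 46.1% of 180 desert regions, against 43.3% elsewhere outside genes. The JUNB share was higher in deserts on 21 of 22 autosomes. The exception, chromosome 19, had 3 desert JUNB regions and 7 desert FOSL2 regions. Chromosome 12 had the densest deserts of the autosomes for both factors, at 16.0 FOSL2 and 7.27 JUNB regions per Mb, and chromosome 19 the sparsest, at 1.32 and 0.565.

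**Figure D2:**
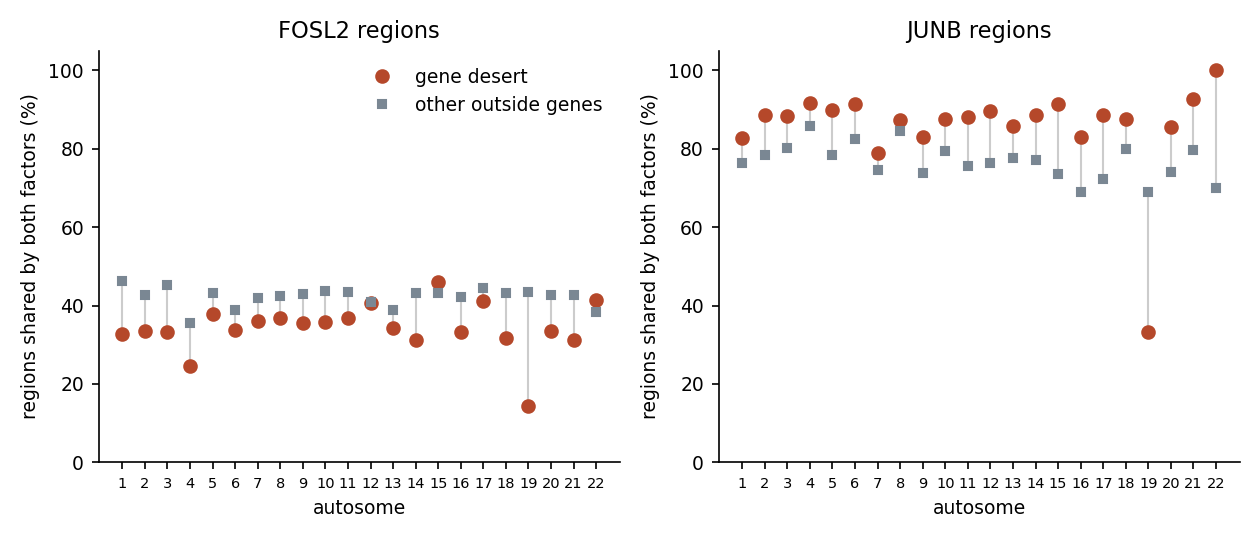
Percent of regions shared by both factors on each autosome, for FOSL2 (left) and JUNB (right), with desert regions as circles and other regions outside genes as squares joined by a line. Circles lie below squares on 20 of 22 autosomes for FOSL2 and above them on 21 of 22 for JUNB.

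Differences in strength between the groups were small beside the spread within each. Median fold enrichment of FOSL2 regions was 5.65 in deserts (interquartile range 3.95 to 8.27) and 5.51 elsewhere outside genes (3.83 to 7.97), a log2 ratio of 0.04. For JUNB it was 5.21 in deserts (3.92 to 7.07) and 4.78 elsewhere outside genes (3.64 to 6.45), a log2 ratio of 0.13. Shared FOSL2 regions had a median of 8.61 in deserts and 7.69 elsewhere, and FOSL2-only regions 4.55 in deserts and 4.34 elsewhere. Shared JUNB regions had 5.50 in deserts and 5.30 elsewhere, and JUNB-only regions 3.39 in deserts and 3.54 elsewhere. Among shared FOSL2 regions the desert median was the higher on 21 of 22 autosomes, and among all JUNB regions also on 21 of 22. It was the higher on 17 autosomes among shared JUNB regions, on 13 among all FOSL2 regions and on 13 among FOSL2-only regions. Among JUNB-only regions it was the higher on 8 and the lower on 13 of the 21 autosomes with such regions. Against other regions at least 10 kb from a gene end the log2 ratio was 0.0052 for FOSL2 and 0.059 for JUNB. No test was run on these medians.

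**Figure D3:**
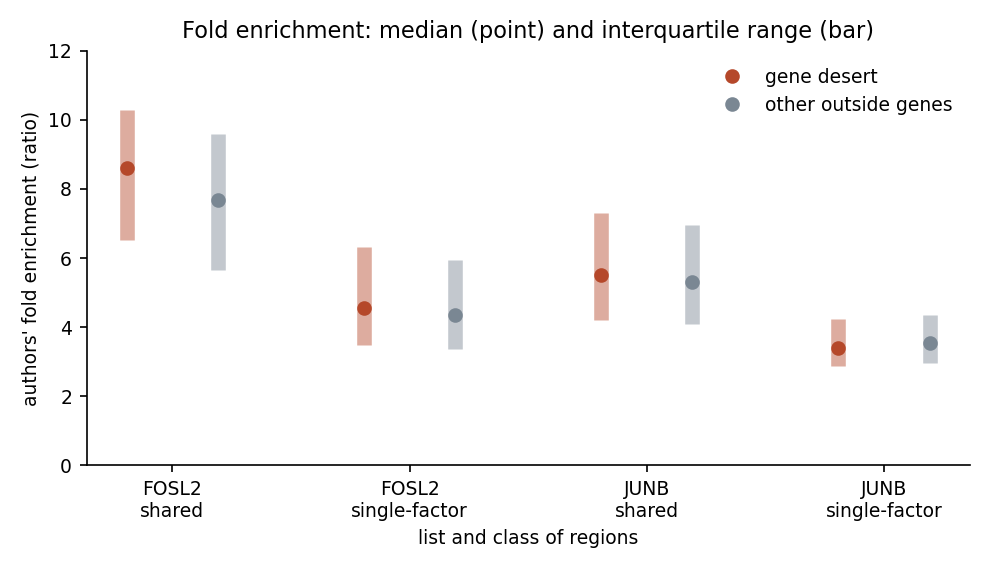
Median (point) and interquartile range (bar) of the authors' fold enrichment, a linear ratio, for shared and single-factor regions of each list, with desert regions left and other regions outside genes right in each pair. Shared FOSL2 regions in deserts have the highest median of the 8 classes, 8.61, and the bars of every pair overlap.

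Sharing also differed between the groups within classes of strength. When both groups were divided into the same 5 classes of fold enrichment, the FOSL2 share in the weakest class was 4.64% in deserts and 11.0% elsewhere outside genes, in the middle class 26.6% in deserts and 40.2% elsewhere, and in the strongest 77.4% in deserts and 81.6% elsewhere. The JUNB share in the weakest class was 59.3% in deserts and 48.2% elsewhere, in the middle class 93.3% in deserts and 81.2% elsewhere, and in the strongest 97.5% in deserts and 97.2% elsewhere. Within these classes the common odds ratio was 0.565 for FOSL2 (0.530 to 0.603) and 1.97 for JUNB (1.74 to 2.24). The intervals of the shares overlapped in the 2 strongest JUNB classes, and in no other class of either list.

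Taken over each whole list, desert regions were slightly narrower. The median width was 621 bp in deserts and 647 bp elsewhere outside genes for FOSL2, and 564 bp in deserts and 581 bp elsewhere for JUNB. With the limit at 500 kb the difference, desert minus other, was -42 bp for FOSL2 and -36 bp for JUNB. Within the classes FOSL2 regions were not narrower in deserts. Shared FOSL2 regions had medians of 897.5 bp in deserts and 885 bp elsewhere, and FOSL2-only regions 490 and 487 bp. Shared JUNB regions had 598 bp in deserts and 632.5 bp elsewhere, and JUNB-only regions 256.5 and 352 bp. Where the factors shared a region their summits lay close together, 31 bp apart at the median in deserts and 30.5 bp elsewhere for FOSL2. The nearest neighbour in the same list was 12.8 kb away at the median in deserts and 8.30 kb elsewhere for FOSL2, and 18.99 kb in deserts and 11.2 kb elsewhere for JUNB. From FOSL2-only regions the nearest JUNB summit was 42.6 kb away at the median in deserts and 17.7 kb elsewhere outside genes. JUNB-only regions lay 8.98 kb in deserts and 7.54 kb elsewhere from the nearest FOSL2 summit. Such distances depend on the density of the other list. JUNB had 4.21 regions per Mb in deserts and 17.2 elsewhere, and FOSL2 had 10.6 and 30.8. The distances were not compared with those of random positions.

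Binding was spread unevenly over the deserts. The rule gives 804 desert stretches, of which 517 held regions of both factors, 144 FOSL2 but no JUNB, 2 JUNB but no FOSL2 and 141 neither. Among the 190 stretches of at least 1 Mb, FOSL2 density had quartiles of 2.46, 7.68 and 14.7 regions per Mb and a maximum of 39.6, and 14 held none. JUNB density in them had quartiles of 0.491, 2.42 and 5.46 per Mb and a maximum of 22.6, and 37 held none. The 10 stretches with the most regions made up 3.02% of desert length and held 8.50% of desert FOSL2 and 10.1% of desert JUNB regions. They were ranked on these counts, which are therefore a description.

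Of these 10, the desert between LOC105372073 and PIK3C3, which encodes a lipid kinase of autophagy, held 84 FOSL2 and 31 JUNB regions in 3780.5 kb. Next came the desert between GATA3, a zinc-finger factor of T cells and of the epidermis and hair follicle, and CELF2, an RNA-binding splicing regulator, with 72 FOSL2 and 39 JUNB regions. IGFBP3, which encodes a secreted binder of insulin-like growth factors, and TNS3, of focal adhesions, bounded 70 FOSL2 and 36 JUNB regions in 953.9 kb. ZEB2, a repressor of E-cadherin, and ACVR2A, an activin receptor, bounded 71 FOSL2 and 21 JUNB regions. KLF4, a factor of terminal keratinocyte differentiation, and ACTL7B bounded 58 FOSL2 and 33 JUNB regions in 964.8 kb.

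TENM4, a teneurin of cell adhesion, and FAM181B bounded 60 FOSL2 and 28 JUNB regions. SLC4A3, an anion exchanger, and EPHA4, an ephrin receptor, bounded 52 and 27. The desert between ACTBL2 and PLK2, a kinase of the cell cycle and stress response, was short, 571.2 kb, and held 49 FOSL2 and 30 JUNB regions, 85.8 and 52.5 per Mb. ARRDC3 and NR2F1, an orphan nuclear receptor, bounded 54 FOSL2 and 20 JUNB regions, and NUDT12 and EFNA5, an ephrin ligand, 46 and 25. In these 10 deserts 80.0 to 96.7% of JUNB regions were shared, and 28.2 to 59.2% of FOSL2 regions. All 10 were still among the 10 fullest when regions narrower than 400 bp were left out, and when only regions with a −log10 q of at least 10 were kept.

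**Figure D4:**
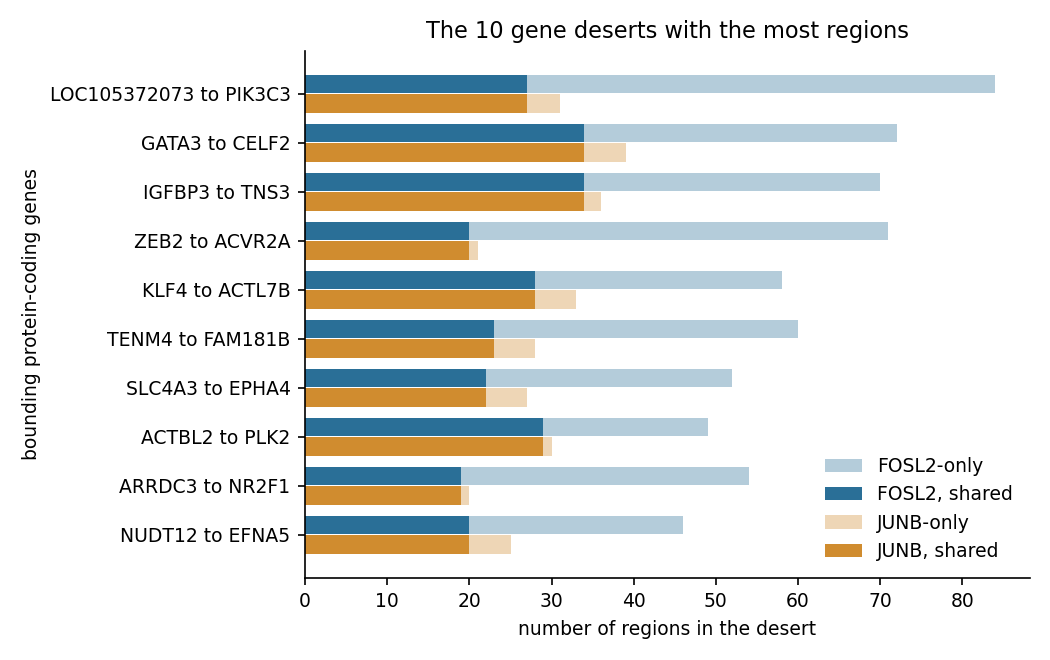
Number of FOSL2 (upper bar) and JUNB (lower bar) regions in the 10 deserts with the most regions, named by their bounding protein-coding genes; the dark part of each bar counts regions shared by both factors. FOSL2 outnumbers JUNB in all 10, by 84 to 31 in the first, and the dark part fills most of each JUNB bar.

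In some deserts the regions were crowded at one side, and in others they were not. In the desert between GATA3 and CELF2 (chr10:8275198-10262550), 61 of 72 FOSL2 and 37 of 39 JUNB regions lay on the GATA3 side of the desert's midpoint. The farthest JUNB region was 1227.5 kb from GATA3, while FOSL2 regions went on to 1903.7 kb. The strongest FOSL2 region there, at 887 kb, had a fold enrichment of 12.5, and the strongest JUNB region, at 553 kb, one of 11.2; both were shared. In the desert between KLF4 and ACTL7B (chr9:107689769-108654588) the crowded end was the other one: 22 of 58 FOSL2 and 12 of 33 JUNB regions lay on the KLF4 side of the midpoint, and the fullest 100 kb, 1000 to 1100 kb from KLF4, held 12 FOSL2 and 9 JUNB regions. In the desert of NR2F1, 40 of 54 FOSL2 and 15 of 20 JUNB regions lay on its side of the midpoint, and yet the strongest region of both lists, 11.9 for FOSL2 and 9.49 for JUNB, was 1795.3 kb away, toward ARRDC3. Between KCNJ2 and SOX9, 33 of 44 FOSL2 and 15 of 22 JUNB regions lay on the SOX9 side. Between IGFBP3 and TNS3, 42 of 70 and 21 of 36 lay on the IGFBP3 side. The remaining mapped deserts divided more evenly at the midpoint. There 25 of 52 FOSL2 and 14 of 27 JUNB regions lay on the EPHA4 side of its desert, and 23 of 49 and 15 of 30 on the ACTBL2 side of its own.

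**Figure D5:**
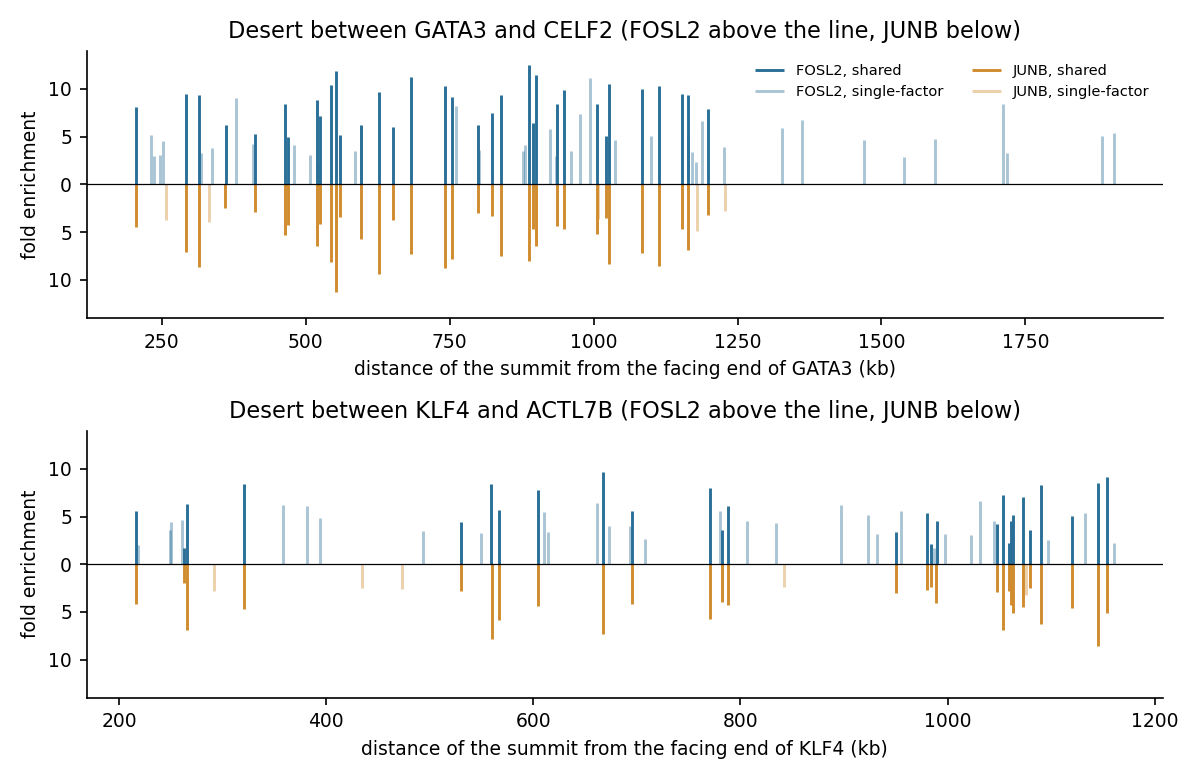
Position and fold enrichment of every desert region between GATA3 and CELF2 (top) and between KLF4 and ACTL7B (bottom), in kb from the end of the first gene that faces the desert; FOSL2 is drawn upward and JUNB downward, and dark lines are shared regions. JUNB lines stop at 1227.5 kb from GATA3, 37 of 39 of them before the midpoint, and 9 of 33 lie 1000 to 1100 kb from KLF4.

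Sharing also varied among deserts. In the 113 stretches with at least 20 FOSL2 regions the FOSL2 share ranged from 5.0 to 69.7% with a median of 35.2%. At the low end were the deserts between REEP3 and CTNNA3 and between MAP3K7 and LOC124901495, each with 1 shared region of 20. At the high end, 23 of 33 FOSL2 regions between RASGRP1 and LOC124903470 were shared, and 23 of 24 JUNB regions there. Between CDH11 and CDH5, both cadherins, 15 of 24 were shared. The 5 longest stretches were nearly bare: the longest, 22039.3 kb across the centromere of chromosome 1, held 2 FOSL2 regions and 1 JUNB region, and the others, on chromosomes 15, 13, 14 and 9 and 17558.9 to 20095.7 kb long, held none of either list. Those on chromosomes 13, 14 and 15 began at base 1 of the chromosome. How much of these 5 stretches is assembled sequence to which reads can be placed was not checked. Their lack of regions is therefore not a result about binding.

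The nearest protein-coding genes of desert regions were many. The median distance from a desert summit to one was 379 kb for FOSL2, with quartiles of 268 and 587 kb, and 362 kb for JUNB, with quartiles of 260 and 532 kb. Beyond 1 Mb lay 573 desert FOSL2 regions (7.90%) and 177 JUNB regions (6.14%). The desert FOSL2 regions had 1059 different nearest genes and the JUNB regions 747, and the gene nearest to most was GATA3, with 61 FOSL2 and 37 JUNB regions, followed by TENM4 with 53 and 27.

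Genes that bound deserts were counted by list. Of 18973 autosomal protein-coding genes 1406 (7.41%) bounded a desert, with a median of 13.3 FOSL2 and 3.35 JUNB regions per Mb in it. Of 35 transcription factors and growth-control genes of keratinocytes 12 did, 11 of these (91.7%) with regions of both factors, where 83.9% of all bounding genes had FOSL2 and 67.5% had JUNB regions, and the median density was 38.5 FOSL2 and 21.7 JUNB regions per Mb. KLF5, which supports basal keratinocyte growth, had 17 FOSL2 and 11 JUNB regions in 0.209 Mb. JAG1, a Notch ligand, had 35 and 23. DUSP6, a phosphatase that damps ERK signalling, had 19 and 11. RUNX1, a runt-domain factor of hair follicle stem cells, had 20 and 5. BCL6, a transcriptional repressor, had none, in a desert of 0.00755 Mb.

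Of 53 developmental transcription factors 39 bounded a desert, with a median of 13.8 FOSL2 and 4.10 JUNB regions per Mb. Among them SOX9, a factor of cartilage and hair follicle, had 56 FOSL2 and 30 JUNB regions in its 2 deserts, and TBX3 30 and 11. Of 41 growth factors and secreted signals 17 did, at medians of 23.4 and 8.55 per Mb: INHBA, an activin subunit, had 15 and 9, and TGFB2, a TGF-β ligand, 17 and 8. Of 46 cadherins and other adhesion genes 41 did, at medians of 7.22 and 2.11 per Mb, and CDH2, which encodes N-cadherin, had 56 and 19. Of 27 melanocyte, fibroblast and neuronal genes 11 did, at 8.44 and 3.35 per Mb. Of 30 keratinocyte structural genes 1 did, DSC3, which encodes a desmosomal cadherin, with 47 FOSL2 and 17 JUNB regions. Several genes of these lists can bound the same desert, and the lists were not tested against one another.

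Desert regions lay inside long noncoding RNA genes more often than other regions outside genes did. The summit lay inside one in 2231 of 7250 desert FOSL2 regions (30.8%, Wilson interval 29.7 to 31.8%), against 23.5% (23.01 to 23.97%) of other FOSL2 regions outside genes. For JUNB it did in 944 of 2883 desert regions (32.7%, 31.1 to 34.5%), against 22.8% (22.2 to 23.4%) elsewhere outside genes. The odds ratio was 1.45 for FOSL2 (1.37 to 1.53, Fisher's exact test, adjusted p = 2.22e-36) and 1.65 for JUNB (1.51 to 1.798, adjusted p = 4.64e-29). Such genes covered 19.4% of desert length and 22.4% of the other length outside genes, or 26.1% of desert and 22.5% of other length without empty stretches of at least 1 Mb. Desert density inside them was 16.8 FOSL2 and 7.11 JUNB regions per Mb, and in the rest of the desert 9.09 and 3.51 per Mb. With the empty stretches left out of the length, but regions inside them still counted, the rest had 13.3 and 5.16 per Mb. Against other regions at least 10 kb from a coding gene end the odds ratio was smaller, 1.25 for FOSL2 (1.18 to 1.33) and 1.36 for JUNB (1.24 to 1.48). With the desert limit set at 500 kb it was 1.05 for FOSL2 (p = 0.353) and 1.20 for JUNB (p = 0.0218), by Fisher's exact test without adjustment.

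Within 1 kb of an end of a long noncoding RNA gene lay 3.50% of desert FOSL2 and 4.06% of desert JUNB summits. Elsewhere outside genes the shares were 7.07% and 9.76%, and 5.40% and 7.03% for regions at least 10 kb from a coding gene end. Starts of such genes were also sparser in deserts, with 1741 promoter windows in 684.8 Mb, against 6444 in the other 980.3 Mb outside genes. The shares were not tested against the number of ends. Of 2779 long noncoding RNA genes that touch a desert 924 held a desert summit, 491 of them of both factors. LOC105370777, whose promoter window is printed above, held the most, 32 FOSL2 and 24 JUNB summits in 556255 bp, 23 of the JUNB regions shared. LOC102724465 held 20 and 12, LOC105376214, in the desert beside KLF4, 21 and 10, LINC00578 19 and 12, and LINC01122 18 and 12. LINC00673, a long noncoding RNA gene near SOX9, had 8 FOSL2 and 5 JUNB regions.

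MIR4435-2HG, a long noncoding RNA gene, had desert regions of FOSL2 without JUNB, as 144 whole stretches did. In or within 10 kb of it lay 10 desert FOSL2 regions, with fold enrichments of 3.71 to 15.3, and 0 desert JUNB regions. The part of the gene less than 200 kb from a coding gene held 7 FOSL2 regions, the strongest at 30.1, and 2 JUNB regions, the stronger at 21.7. This gene has a near-identical copy, CYTOR, elsewhere on chromosome 2, and how reads common to both were treated is not given in the sources used here, so its values are uncertain. It was chosen after its values were seen.

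Deserts held 99 miRNA genes, 0.145 per Mb, against 0.554 per Mb elsewhere outside protein-coding genes. Of the desert genes 28 (28.3%, Wilson interval 20.4 to 37.8%) had a FOSL2 summit within 10 kb, 15 (15.2%, 9.40 to 23.5%) a JUNB summit and 13 both. Of the 543 elsewhere outside genes 49.0% had a FOSL2 and 35.9% a JUNB summit that near. Of all desert positions 16.1% lay within 10 kb of a FOSL2 summit and 6.82% of a JUNB summit, and these shares were not tested against each other. The mature sequences below, from RefSeq, are examples from genes with a region of each factor nearby, with let-7c-5p added since it has the seed of miR-4458; bases 2 to 8, the seed that pairs with target messages, are in capitals.
miR-3660: aCUGACAGgagagcauuuuga
miR-148a-3p: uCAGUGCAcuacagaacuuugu
miR-4458: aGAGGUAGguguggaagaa
let-7c-5p: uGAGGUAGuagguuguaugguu

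MIR3660 had a FOSL2 region at 12.1 and a JUNB region at 8.61, 4637 and 4615 bp away. MIR148A, whose product targets DNA methyltransferase messages among others, had FOSL2 at 8.48 and JUNB at 5.95 at 8750 and 8716 bp. MIR4458 had FOSL2 at 9.97 and JUNB at 6.53, the pair that also lies in the window of its host gene MIR4458HG. MIRLET7C, of the let-7 family that restrains growth, had 1 FOSL2 region at 3.36 and no JUNB region within 10 kb. No desert summit lay inside a miRNA gene.

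The strongest single desert regions were of several kinds. Of the 5 shared regions with the highest JUNB fold enrichment, 4 lay in stretches bounded by RefSeq loci without established names. One on chromosome 21 (chr21:8420395-8420549) had JUNB at 21.8 and FOSL2 at 14.5 and was only 155 bp wide. A close pair on chromosome 9 (chr9:63338010-63338156 and chr9:63338310-63338817) had JUNB at 16.2 and 21.0 and FOSL2 at 18.7 and 23.6, in JUNB regions 147 and 508 bp wide. One on chromosome 2 (chr2:91766208-91766935) had JUNB at 15.5 and FOSL2 at 15.1. The fifth, between FAT4, an atypical cadherin, and INTU, of cilium assembly, had JUNB at 14.7 and FOSL2 at 15.9 at 782 kb from INTU. The first 4 lie in sequence near centromeres or on the short arm of chromosome 21, where near-identical copies are common, and how reads that fit several copies were treated is not given; their fold enrichments are therefore uncertain.

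The 5 strongest FOSL2-only desert regions ranged from 14.1 to 16.7 in fold enrichment. The first lay 359 kb from NR4A2, an early-response nuclear receptor, at 777 bp wide, and another in the desert between ZEB2 and ACVR2A. The 5 strongest JUNB-only regions ranged from 8.99 to 10.9, and the first, 649 bp wide, lay 274 kb from KITLG, which encodes the KIT ligand that keratinocytes supply to melanocytes, in the desert between KITLG and DUSP6. Of the strongest 10% of each autosomal list, 81.8% of desert FOSL2 regions (79.1 to 84.2%) and 85.0% of the others (83.6 to 86.2%) were shared, and 97.9% of desert JUNB regions and 97.8% of the others.

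The 3 FOSL2 summits farthest from a coding gene were below the desert FOSL2 median of 5.65. The farthest, 4505.0 kb from OR11H1 on chromosome 22, had a fold enrichment of 3.95, its neighbour 3.71, and the third, on chromosome 1, 2.95. They do not stand for distant regions in general: the 573 FOSL2 regions beyond 1000 kb had a median of 5.51. These summits lay before the first coding gene of chromosome 22 or in the stretch across the centromere of chromosome 1. The caveat on near-identical copies may hold there too. For JUNB the desert median was 5.21. The farthest JUNB summit, 3617.1 kb from LINC02798 on chromosome 1, a locus that the gene table lists as protein-coding, had 3.96, the next, 2224.0 kb from ARAP2 on chromosome 4, 6.12 and the third, 2041.1 kb from PIK3C3 on chromosome 18, 3.37; the last 2 of these were shared, with FOSL2 at 11.98 and 6.23. At the limit of the rule, the FOSL2 summits just inside lay 200100 to 200128 bp from CAMK1G, DPH6 and RREB1 with fold enrichments of 3.50, 2.80 and 4.31, and those just outside 199950 to 199972 bp from NFKBIZ, LPP and LOC124903470 with 10.1, 5.56 and 3.16. The JUNB summits just inside lay 200151 to 200783 bp from SP8, SUGCT and HLX with 3.41, 2.40 and 5.14, and those just outside 199713 to 199956 bp from DAB2, ATXN7L3B and NFKBIZ with 11.5, 6.82 and 5.28.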

How the data were processed

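Binding was measured by ChIP-seq in 6 libraries, 3 per factor, per the labels. The submitters' processing notes name hg38 and, in no stated order, MACS2, deepTools, Bowtie2, Picard 1.89 and SAMtools 1.8. The control, the rule that combined libraries and the depth per library were not given in the sources used here. The deposited lists hold 75704 FOSL2 and 40061 JUNB rows with a score, a fold enrichment (linear ratio) and a −log10 q per region; these values are the authors' own. Fold enrichment and −log10 q were used as deposited, and the score and the p column were not used.

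Summits were placed against RefSeq genes of GRCh38.p14, which shares coordinates with hg38: 18973 protein-coding and 17525 long noncoding RNA genes on autosomes. Rows with positions counted on other scaffolds (676 genes, 153 of them protein-coding) were left out. The table was used without strand. Shares were compared by two-sided Fisher's exact test with exact odds ratios and Benjamini-Hochberg adjustment over the 2 factors, and with Wilson intervals, at a 95% level (Python 3.11.15, scipy 1.17.1, statsmodels 0.14.6). The scripts were tested on simulated data. Medians of fold enrichment and width, densities and gene lists were not tested. A genome was not used here; promoter windows replaced the motif count and sequences planned at summits.

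Named were the 10 fullest stretches, the 5 strongest shared, FOSL2-only and JUNB-only regions, the 3 farthest summits per list, the 5 long noncoding RNA genes with most summits, the 5 longest stretches and the 3 summits on each side of 200 kb; list members, promoters, map and miRNA examples were picked after their values were seen. Regions, lists and tests were chosen with earlier results of these data known. Alternatives were other desert limits, overlap rules, strength and width limits, comparison groups, and chromosome and gene sets.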

Additional observations from a re-analysis of the deposited data

How the results depend on the processing

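No paired analysis was possible because each factor has 1 list for its 3 libraries, with no value per replicate; leaving out a replicate was not possible for the same reason. Of 104 recomputed values, 0 reversed. However, 20 of the 104 were counts of regions in the fullest stretches, which have no direction and could not reverse. The odds ratios of sharing kept their side of the threshold under all alternatives run, from 0.565 to 0.759 for FOSL2 and from 1.23 (reciprocal overlap of 50%) to 3.01 (−log10 q of at least 10) for JUNB. Keeping genes listed on other scaffolds, an alternative chosen after seeing the data, moved no value beyond its interval.

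The density ratio, desert over other, moved most. It was 0.399 for FOSL2 and 0.293 for JUNB with a limit of 100 kb, and 0.222 and 0.140 with 500 kb. With deserts bounded by protein-coding and long noncoding RNA genes it was 0.117 and 0.0721. Leaving the empty stretches of at least 1 Mb out of the length gave 0.461 and 0.328, with regions inside them still counted. At −log10 q of at least 10 the ratio was 0.334 for FOSL2. The log2 ratio of median fold enrichment for FOSL2 became 0.077 at −log10 q of at least 10, 0.080 without regions narrower than 400 bp, and 0.0052 against other regions at least 10 kb from a gene end; for JUNB the last gave 0.059, and bounding by both gene kinds 0.20. With 500 kb the width difference was -42 bp for FOSL2 and -36 bp for JUNB, and the FOSL2 odds ratio of lying inside a long noncoding RNA gene was 1.05 (p = 0.353, Fisher's exact test). The cause was not tested. The unknown depth limits what the absence of a JUNB region can show.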

Other observations

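When 10 kb on each side was counted as part of a long noncoding RNA gene, such genes held 40.2% of desert FOSL2 regions (39.1 to 41.4%, Wilson interval) and 39.7% (39.1 to 40.2%) of the others, and 43.1% of desert JUNB regions (41.4 to 44.97%) and 40.8% (40.1 to 41.6%) of the others. Among JUNB-only regions, 15 of 364 in deserts (4.12%, 2.51 to 6.69%) had a summit within 1 kb of an end of such a gene, against 14.2% (13.2 to 15.4%) elsewhere outside genes. For JUNB-only regions elsewhere at least 10 kb from a coding gene end the share was 9.80%. Pseudogenes held 55 desert FOSL2 summits (0.759%) and 28 desert JUNB summits (0.971%). Where a desert region was shared, the fold enrichments of the FOSL2 and the JUNB region of a pair had a rank correlation of 0.692 over 2504 FOSL2 regions, and elsewhere outside genes of 0.729 over 12890; both come from the same cells, and the correlation is given as a description.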
